A study of Mus musculus with 6 samples.

Results

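The cyclic AMP (cAMP) signaling genes of cultured mouse adipocytes were examined as a pathway, from the adrenoceptors at the cell surface to the transcription factors CREB and CREM. The rule that picks members uses gene symbols and no measured value, though it was set with earlier results of these data known: adrenoceptors, G protein alpha subunits of the stimulatory (Gnas) and inhibitory (Gnai1, Gnai2 and Gnai3) kind, adenylyl cyclases, subunits of protein kinase A (PKA), cyclic nucleotide phosphodiesterases, A-kinase anchoring proteins (AKAPs), Creb1 and Crem. The rule found 69 of the 22609 gene symbols listed. They comprised 9 adrenoceptors, 4 G alpha subunits, 10 adenylyl cyclases, 6 PKA subunits, 22 phosphodiesterases, 16 AKAPs and the 2 CREB factors.

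In fat cells, noradrenaline acts on β-adrenoceptors, which through the stimulatory G protein switch on adenylyl cyclase, while α2-adrenoceptors act through inhibitory G proteins. The cAMP formed releases the catalytic subunits of PKA from its regulatory subunits, and PKA then phosphorylates hormone-sensitive lipase, perilipin and CREB. Phosphodiesterases end the signal by hydrolyzing cAMP or cGMP, and AKAPs hold PKA at particular places in the cell. In white fat this pathway is known for driving lipolysis and, with cold, the thermogenic program.

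Cells of the stromal vascular fraction from inguinal white fat (iWAT) of male C57BL6 mice were differentiated in culture and received either control mimic or miR-182-5p mimic, a synthetic double-stranded RNA that acts as the miRNA. Each group had 3 samples, and the labels give an age of 3 weeks for the mice of both. The labels name electroporation and a control vector, whereas the methods of the study name a lipid reagent, mimic control and a slightly older age, and no source used here says whether the samples of a group came from separate animals or cultures, so the p values may measure technical spread only. Neither group is labelled as stimulated with a β-agonist or as cocultured with macrophages.

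Reads counted on genes ranged from 25869810 to 26484794 with control mimic and from 25960631 to 28796712 with miR-182-5p mimic. Counts were scaled to CPM, the reads of a gene relative to all reads counted in its library, with edgeR's TMM factors, and a gene was called when it differed at least 1.5-fold with an adjusted p under 0.05 in edgeR's quasi-likelihood test. All adjusted p values come from that fit of 13117 genes with Benjamini-Hochberg adjustment, and genes past the adjusted p alone are described as having risen or fallen. SE stands for standard error, here of a log2 fold change. The first principal component (65.1% of the variance) separated the groups and the second (11.8%) set mimic replicate 1 apart, at -13.1 against 7.61 and 7.35 for the other mimic samples, and control replicate 1 at 8.29 against -4.81 and -5.31. Where leaving out mimic replicate 1 changed a call of a member, the value without it is given. Adipoq (928 ± 20.6 CPM with control mimic, SD, n = 3) and Fabp4 (3316 ± 132) marked the cultures as adipocytes, beside Col1a1 at 19250 ± 610, a matrix gene of fibroblasts. Of 10 adipocyte markers, 7 fell and 1, Lep, rose, and their summed level was 12758 to 13542 CPM with control mimic and 8851 to 10020 with miR-182-5p mimic. Of 7 tested markers of fibroblasts and progenitors, 5 fell, among them Cd34 (log2 fold change -1.53) and Pdgfra (-0.86), and 1 rose. Their summed level, 20313 to 21426 against 19397 to 20248 CPM, came mostly from Col1a1, which did not pass the test (-0.046). Of 5 tested markers of smooth muscle and pericytes, 4 rose and 0 fell (3497 to 3669 against 4195 to 4554 CPM). Among all genes tested, 23.2% rose and 23.5% fell. Macrophage markers summed to 12.6 to 14.3 and 11.6 to 14.2 CPM with Cd163 at 0 reads and Ptprc at 0 to 4 reads, and endothelial markers to 7.78 to 9.15 and 4.97 to 5.67 CPM with Cldn5 at 0 reads. Within the endothelial list Tek was called lower (mean 6.05 against 2.43 CPM), while Kdr (1.59 against 2.14) and Cdh5 (0.554 against 0.503) did not pass the test. The nerve list, of 6 genes, summed to 57.7 to 61.01 and 81.5 to 83.4 CPM, nearly all from Tubb3, and Th, the enzyme that starts noradrenaline synthesis, had 0 reads in every sample. Thermogenic markers summed to 37.0 to 40.7 and 31.2 to 32.5 CPM, with Ucp1 at 0 to 6 reads. In bulk RNA, fewer cells of a type and less RNA per cell cannot be told apart, and the part of these marker shifts in the results was not tested.

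Most of the pathway was expressed, and few of its genes moved by a large factor. Of the 69 members, 57 had enough reads to be tested, and 6 of these were called: Pde2a was higher (1.97% of all genes tested were called higher), and Adcy6, Adcy10, Prkacb, Pde7b and Adra1a were lower with miR-182-5p mimic (5.48% of all genes). The 6 made up 10.5% of the members tested, and 7.45% of all genes tested were called by the same rule. Past the adjusted p alone were 31 members, 15 higher and 16 lower, or 54.4%, where 46.7% of all genes tested passed, 23.2% higher and 23.5% lower. A further 25 members thus moved by less than 1.5-fold. The median log2 fold change of the members tested was -0.035, against -0.0043 over all genes tested. In 34 members tested (59.6%) the CPM of the groups did not overlap, as in 54.8% of all genes tested. The share of the members that changed therefore lay close to that of the transcriptome at large, and what follows describes which of them changed.

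**Figure D1:**
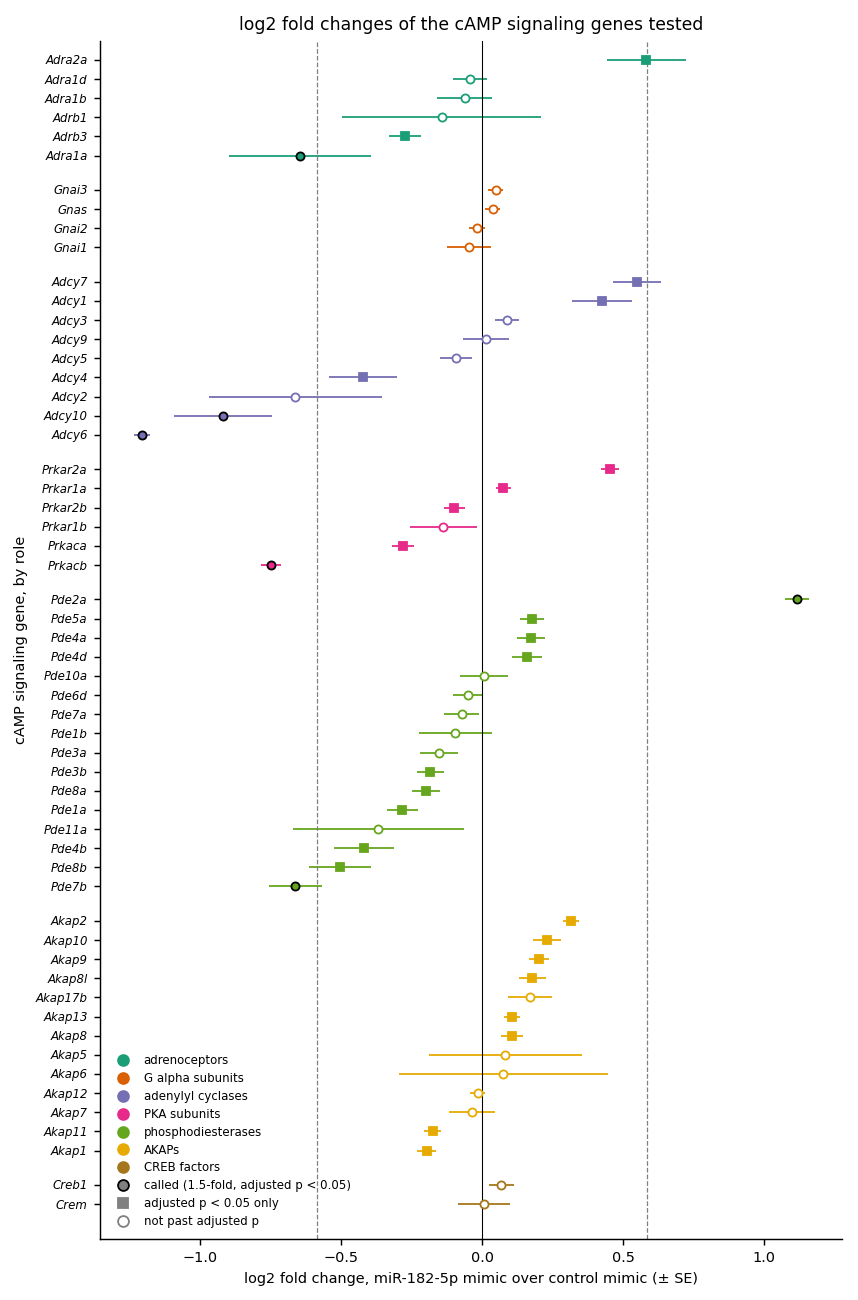
log2 fold change (x axis, miR-182-5p mimic over control mimic, bars are standard errors) of 56 of the members tested, grouped by role; black-rimmed points are called, squares are past the adjusted p alone, open points are neither and dashed lines mark 1.5-fold. Adcy6 lies farthest to the left (-1.21) and Pde2a farthest to the right (1.12), while the G alpha subunits and CREB factors sit near 0.

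The other 12 members had at most 13 reads in any sample and were not tested: Adra2b, Adra2c, Adcy8, Pde1c, Pde4c, Pde6a, Pde6b, Pde6c, Pde9a, Akap3, Akap4 and Akap14. Of these, 4 had 0 reads in all 6 samples (Adra2c, Pde6c, Pde9a and Akap4). A count of 0 allows up to 3 reads per library, or 0.104 to 0.116 CPM, counting error only.

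**Figure D2:**
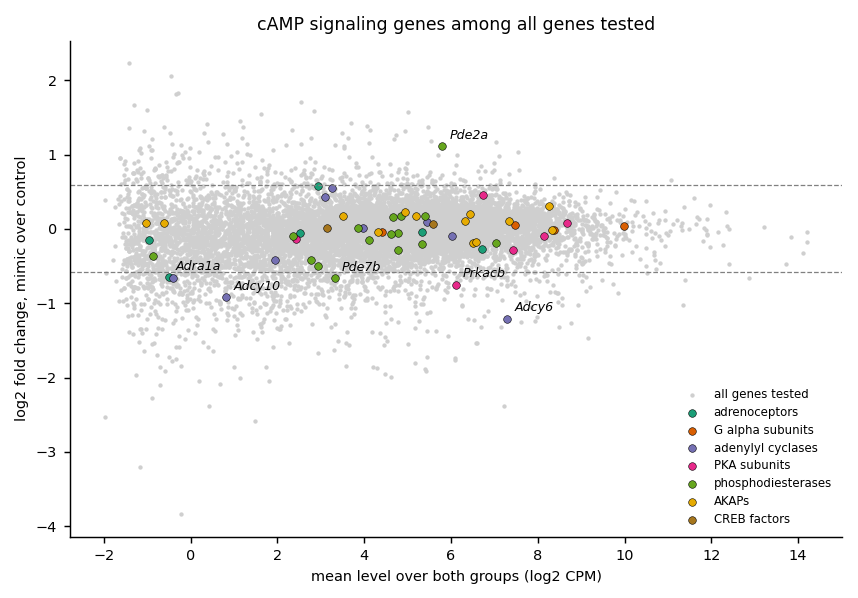
Mean level over both groups (x axis, log2 CPM) and log2 fold change (y axis, mimic over control) of all 13117 genes tested in grey and of 56 members in color by role. Of the 6 called members, Adcy6, Prkacb and Pde2a were measured at 218, 86.6 and 35.0 CPM with control mimic, and Adra1a at 0.862.

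Because the groups differ by a miRNA, the sequences that bear on the comparison are the miRNA and its possible sites. The mature miR-182-5p in RefSeq (GRCm38.p6, chromosome 6 from 30165962 to 30165986, minus strand) is given with its seed, bases 2 to 8, in capitals. The methods of the study print a different sequence for their assay of this miRNA, and poly(A) libraries do not show which small RNA the cells received.

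miR-182-5p: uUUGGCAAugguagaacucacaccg

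The seed pairs with TTGCCAA in an mRNA. In the longest annotated 3′-UTR of each gene (GENCODE M21, GRCm38), 14 of the 57 members tested held this match (24.6%), as did 12.5% of 12523 genes tested with a 3′-UTR. The shares were not adjusted for 3′-UTR length, which was not compared between members and all genes. Among the 14, 4 fell and 3 rose, where 580 fell and 285 rose of the 1568 genes with a match, and the median of the 14, as a log2 fold change, was -0.015, against -0.043 for the members without a match. Over all genes tested the medians were -0.069 with a match and 0.0074 without. Called lower were 3 of the 14 members and called higher 0, against 183 and 23 of the 1568 genes with a match. The match was present in 4 members more than once: Adcy6, Prkacb, Adra2a and Pde3a, each with 2. Of these, Adcy6 and Prkacb were called lower, Adra2a rose, and Pde3a did not pass the adjusted p (-0.15, SE 0.068, adjusted p = 0.0813) except without control replicate 2 (-0.20, adjusted p = 0.0498). Adra1a, also called lower, held 1 match, and Pde7b, Adcy10 and Pde2a held 0. The sites of the first 3 genes are shown 5′ to 3′ as they read in the transcript, with the match in capitals, since these genes carry multiple matches and moved in opposite directions.

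Adcy6, chr15:98591780-98591786, minus strand: aatgtttccatTTGCCAAatcc

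Adcy6, chr15:98591418-98591424, minus strand: tatcccttgtaTTGCCAAatag

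Prkacb, chr3:146732132-146732138, minus strand: tgaattcagttTTGCCAAaact

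Prkacb, chr3:146731351-146731357, minus strand: ttctatacattTTGCCAAttga

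Adra2a, chr19:54048661-54048667, plus strand: cccgatacaatTTGCCAAggta

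Adra2a, chr19:54048788-54048794, plus strand: tgactactgaaTTGCCAAagtc

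Both sites of Adcy6 are followed by an A, which makes an 8-base match, and so is 1 site each of Prkacb and Adra2a. An 8-base match was held by 8 of the 57 members tested (14.0%) and by 5.24% of the 12523 genes, again without adjustment for 3′-UTR length. A match is a description of the sequence and not evidence of binding.

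**Figure D3:**
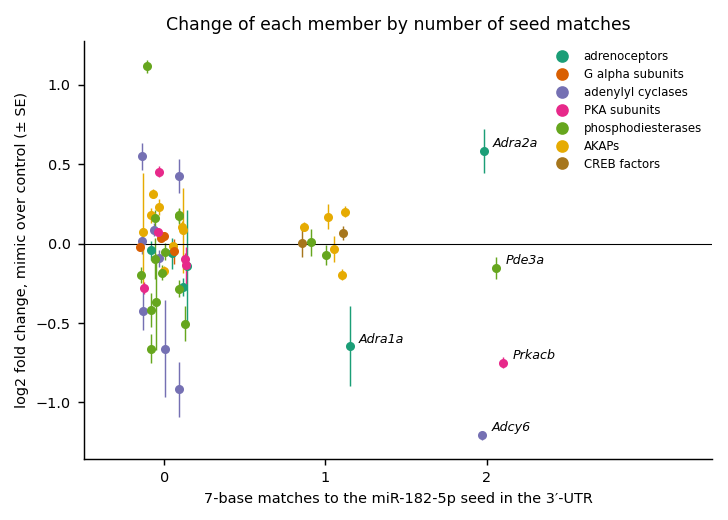
log2 fold change (y axis, mimic over control, bars are standard errors) of 56 of the members tested by the number of 7-base seed matches in the 3′-UTR (x axis, points spread sideways for legibility), colored by role. The 4 members with 2 matches range from -1.21 (Adcy6) to 0.58 (Adra2a), and Pde2a, with 0 matches, is the highest of all.

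Among the receptors, Adrb3 and Adra1d accounted for most of the signal. Adrb3 encodes the β3-adrenoceptor, the form typical of rodent adipocytes, and Adra1d encodes an α1-adrenoceptor. Per kilobase of exon, which allows genes to be compared, Adrb3 reached 33.9 CPM with control mimic and Adra1d 21.6, whereas Adrb1, for the β1-adrenoceptor, lay at 0.159. Adrb3 was measured at 112.6, 115.1 and 115.3 CPM in control replicates 1 to 3 and at 82.9, 99.4 and 101.5 in mimic replicates 1 to 3. Each mimic sample lay under each control sample, and mimic replicate 1 was the lowest. Adrb3 fell by 0.27 on the log2 scale (SE 0.057, adjusted p = 0.00125), or by 0.19 without mimic replicate 1. Antisense RNA gene Gm45470 covers 24.9% of the exon bases of Adrb3, and whether reads were assigned by strand is not given in the sources used here.

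Adra2a, which encodes the α2A-adrenoceptor and couples to inhibitory G proteins, moved the other way. It was measured at 5.50, 5.94 and 6.82 CPM with control mimic and at 11.4, 8.08 and 7.79 CPM with miR-182-5p mimic. All mimic samples lay above all controls, and mimic replicate 1 stood above the other 2. It rose by 0.58 on the log2 scale (SE 0.14, adjusted p = 0.00334), a 1.498-fold rise just under the 1.5-fold line. Without mimic replicate 1 it was 0.38, and it passed both cutoffs without control replicate 3 (0.67), mimic replicate 2 (0.66) or mimic replicate 3 (0.69) and with DESeq2 size factors (0.5852).

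Adra1a, an α1-adrenoceptor, was near the limit of detection at 0.786, 0.842 and 0.958 CPM with control mimic and 0.480, 0.569 and 0.602 with miR-182-5p mimic, or 14 to 25 reads per sample. The groups did not overlap, but its call (log2 fold change -0.65, SE 0.25, adjusted p = 0.0485) was lost on removal of any 1 sample, where the adjusted p ranged from 0.0659 to 0.148, and with DESeq2 (adjusted p = 0.205). Adrb1 had 9 to 19 reads per sample, or 0.354, 0.536 and 0.728 CPM with control mimic and 0.445, 0.342 and 0.673 with miR-182-5p mimic, with overlapping groups. It did not pass the test (-0.14, SE 0.35, adjusted p = 0.767), and its approximate 95% interval, from -0.83 to 0.55, leaves room for a decrease of 1.5-fold. Adra1d and Adra1b did not pass either (-0.042 and -0.061). The summed receptor level per kilobase was 58.9 ± 1.77 CPM with control mimic and 53.0 ± 2.32 with miR-182-5p mimic (SD, n = 3), of which Adrb3 made up 57.5% ± 1.65 and 52.8% ± 3.99.

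**Figure D4:**
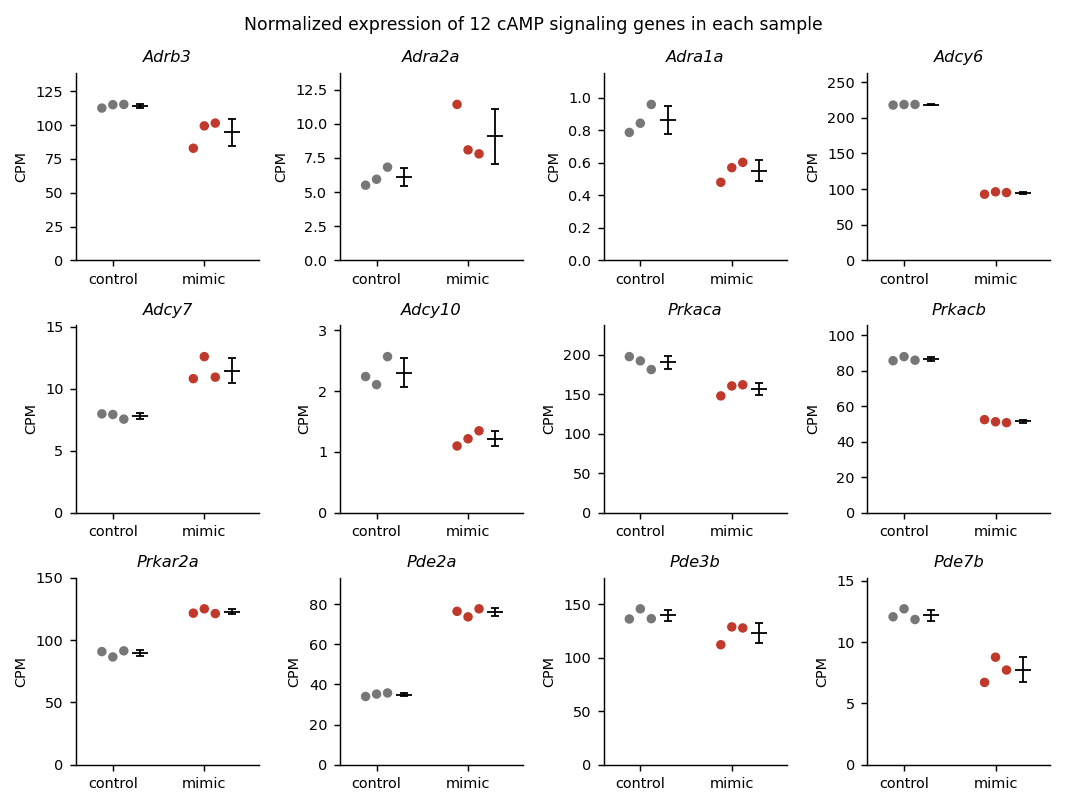
CPM (y axes, from 0) of 12 members in each sample, control mimic in grey and miR-182-5p mimic in red, with the replicates of a group side by side; black bars are group means ± SD (n = 3). All 12 genes are past the adjusted p, and the groups do not overlap in any of their panels. Of the members tested, 59.6% did not overlap, as did 54.8% of all genes tested. Mimic replicate 1 (left red point) is the sample of its group farthest from the other 2 for Adrb3, Adra2a, Adra1a, Adcy6, Prkaca, Prkacb and Pde3b.

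The G protein alpha subunits differed by little. Gnas, which encodes the stimulatory subunit, was the most abundant member by reads, at 1002, 1011 and 999.6 CPM with control mimic and 1041, 1031 and 1022 with miR-182-5p mimic. Its groups did not overlap, yet the difference of 0.038 on the log2 scale (SE 0.027, adjusted p = 0.273) did not pass the test, and the interval ran from -0.015 to 0.092. Gnai3 (0.048), Gnai2 (-0.018) and Gnai1 (-0.048), the inhibitory subunits, did not pass either. Their intervals lay within -0.20 and 0.11, well inside 1.5-fold. Gnas is annotated with alternative first exons, and the counts do not separate its transcripts. On the opposite strand, antisense gene Nespas covers 8.83% of the exon bases of Gnas and protein-coding gene Gm20721 covers 13.1%.

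The adenylyl cyclases held the largest change of the pathway. Adcy6, which encodes a cyclase inhibited by calcium, lies at chr15:98589973-98610076 on the minus strand of GRCm38. It was measured at 217.7, 218.5 and 218.6 CPM in the controls and at 92.7, 96.1 and 95.03 with miR-182-5p mimic. The groups were far apart and each was tight (218 ± 0.482 and 94.6 ± 1.74, SD, n = 3). The difference of -1.21 on the log2 scale (SE 0.028, adjusted p = 1.47e-12), 2.31-fold lower, ranked at 3 by p value among the 13117 genes tested. It stayed between -1.21 and -1.19 when each sample was left out in turn. Antisense gene Gm29331 covers 8.92% of its exon bases.

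Adcy6 was also the most abundant cyclase per kilobase, at 32.2 CPM with control mimic, ahead of Adcy5 (9.29) and Adcy3 (6.72). With miR-182-5p mimic it remained the first, at 14.0, ahead of Adcy5 (8.71) and Adcy3 (7.14). Its share of the summed cyclase level was 59.2% ± 0.526 in the controls and 38.5% ± 1.08 with the mimic (SD, n = 3). The sum itself was 54.4 ± 0.412 against 36.3 ± 1.61 CPM per kilobase, which is 66.8% of control. With the longest annotated transcript as length, the shares of Adcy6 were 60.4% and 39.6%. These sums count mRNA and say nothing of enzyme activity.

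The other cyclases moved in both directions from lower levels. Adcy10, the soluble cyclase that responds to bicarbonate, was measured at 2.24, 2.11 and 2.57 CPM with control mimic and 1.10, 1.22 and 1.35 with the mimic, on 32 to 67 reads per sample. It was called lower (log2 fold change -0.92, SE 0.17, adjusted p = 0.000623) and remained called with any 1 sample removed. Adcy7 rose from 7.98, 7.93 and 7.55 to 10.8, 12.6 and 10.9 CPM (0.55, SE 0.084, adjusted p = 9.97e-05), short of 1.5-fold except without mimic replicate 1 (0.59). Adcy1 also rose (0.43, SE 0.10, adjusted p = 0.00417) and Adcy4 fell (-0.42, SE 0.12, adjusted p = 0.0104).

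Adcy5 and Adcy3, which follow Adcy6 in level, did not pass the test. Adcy5 was measured at 68.1, 65.7 and 66.3 CPM with control mimic and at 55.7, 65.5 and 66.5 with the mimic, where mimic replicate 1 alone was low (-0.094, SE 0.056, and -0.014 without that sample). Adcy3 gave 0.088 on the log2 scale (SE 0.043, adjusted p = 0.107), and 22.1% of its exon bases are shared with Cenpo on the opposite strand. Adcy9 gave 0.015 (SE 0.081), and Adcy2, at 10 to 31 reads, gave -0.66 (SE 0.31, adjusted p = 0.0931), or -0.98 without mimic replicate 3 (adjusted p = 0.0334).

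**Figure D5:**
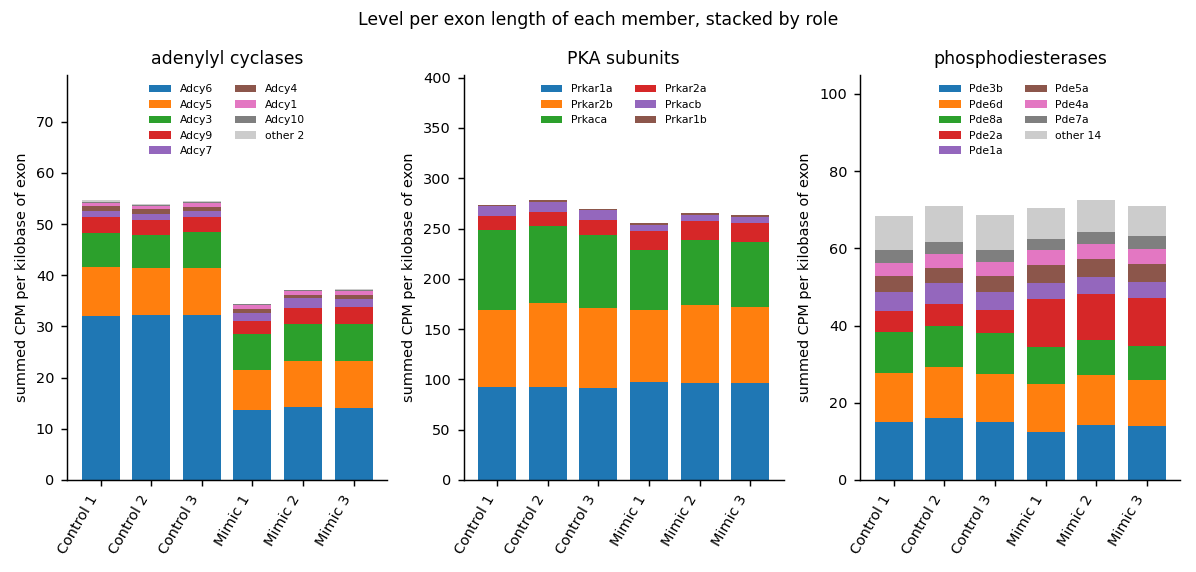
Level per kilobase of exon (y axes, CPM per kilobase) in each sample, stacked by gene for the adenylyl cyclases, PKA subunits and phosphodiesterases, with the rarest cyclases and phosphodiesterases joined as "other". The cyclase stack falls from 54.4 to 36.3 on average, nearly all through Adcy6. The PKA stack averages 274 and 261, or 95.3% of control, with each mimic sample under each control. The phosphodiesterase stack (69.3 and 71.3) overlaps between the groups, while Pde2a takes a larger part of it.

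Of the 6 PKA subunits, 2 rose and 3 fell. Past the adjusted p were thus 83.3% of them, where 46.7% of all genes tested passed, 23.2% higher and 23.5% lower. Both catalytic subunits fell, and regulatory subunits moved in both directions. Prkacb, which encodes the catalytic subunit Cβ (chr3:146729574-146812990, minus strand, GRCm38), was measured at 85.7, 88.0 and 86.0 CPM with control mimic and 52.4, 51.2 and 50.7 with miR-182-5p mimic. The groups were far apart beside the spread within them (86.6 ± 1.26 and 51.5 ± 0.884, SD, n = 3). It was called lower, at -0.75 on the log2 scale (SE 0.035, adjusted p = 8.4e-10), and stayed between -0.76 and -0.74 with each sample left out. Prkaca, for the catalytic subunit Cα, was measured at 197.7, 192.3 and 181.3 CPM in the controls and 147.9, 160.5 and 162.0 with the mimic. Prkaca fell by 0.28 (SE 0.040, adjusted p = 4.88e-05), less than 1.5-fold, and was at -0.24 without mimic replicate 1.

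Prkar2a, for the regulatory subunit RIIα, rose from 90.8, 86.5 and 91.4 to 121.6, 125.1 and 121.3 CPM (0.45, SE 0.032, adjusted p = 6e-08). Its groups did not overlap. Prkar1a and Prkar2b, for RIα and RIIβ, the latter typical of adipocytes, moved by under 0.1 on the log2 scale. Prkar1a was measured at 397.6, 398.7 and 394.7 against 421.7, 415.3 and 417.9 CPM (0.076, SE 0.026, adjusted p = 0.0277). It no longer passed the adjusted p on removal of any of 4 samples (up to 0.0923, without control replicate 3). Prkar2b was measured at 280.7, 304.7 and 291.6 against 262.0, 283.8 and 273.9 CPM, with overlapping groups (-0.098, SE 0.036, adjusted p = 0.039). It no longer passed the adjusted p in 4 of the 6 fits, without control replicate 2 (0.18), control replicate 3 (0.0839), mimic replicate 1 (0.124) or mimic replicate 3 (0.0768). Prkar1b, near 5 CPM, did not pass (-0.14, SE 0.12).

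By level per kilobase, Prkar1a (91.9 CPM), Prkar2b (80.0) and Prkaca (76.5) led with control mimic, and Prkacb reached 9.87. The catalytic subunits summed to 86.4 ± 3.36 CPM per kilobase with control mimic and 68.9 ± 3.02 with the mimic, or 79.7% of control. The regulatory subunits summed to 187.4 ± 3.11 and 192.2 ± 2.42, with overlapping groups. Within the catalytic sum Prkacb made up 11.4% ± 0.456 and 8.53% ± 0.531 (SD, n = 3). With the longest transcript as length those shares were 19.2% and 14.7%, so the share of Prkacb depends on the length used. The fold change of Prkacb cannot, because a length divides its CPM alike in all samples.

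The phosphodiesterases held the only member called higher. Pde2a, which encodes a cGMP-stimulated enzyme that hydrolyzes both cAMP and cGMP, lies at chr7:101421691-101512827 on the plus strand of GRCm38. It was measured at 34.0, 35.2 and 35.8 CPM with control mimic and 76.5, 73.7 and 77.7 with miR-182-5p mimic. Every mimic sample lay far above every control. Pde2a was called higher by 1.12 on the log2 scale (SE 0.041, adjusted p = 6.12e-11), 2.17-fold, and lay between 1.10 and 1.14 with each sample left out. Read-through gene Gm45837, on the same strand, shares 64.3% of the exon bases of Pde2a and was not analysed here.

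Pde3b encodes the enzyme through which insulin lowers cAMP in adipocytes. It was measured at 136.4, 145.9 and 136.7 CPM with control mimic and at 112.3, 129.0 and 128.0 with the mimic, with no overlap and with mimic replicate 1 the lowest. It fell by 0.18 (SE 0.047, adjusted p = 0.00558), and by 0.12 without mimic replicate 1 (adjusted p = 0.0114). Per kilobase it was the most abundant phosphodiesterase in both groups (15.3 and 13.5 CPM). Pde2a moved from 5.69 to 12.4 CPM per kilobase, from 8.22% ± 0.237 to 17.3% ± 0.682 of the phosphodiesterase sum (SD, n = 3), while the sum was 69.3 ± 1.453 and 71.3 ± 1.01. With the longest transcript as length, Pde6d, whose product is known chiefly as a carrier of prenylated proteins, came before Pde3b (21.4 against 21.3 CPM per kilobase with control mimic).

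Pde7b, which encodes an enzyme specific for cAMP, was called lower. It was measured at 12.1, 12.7 and 11.8 CPM with control mimic and at 6.71, 8.77 and 7.72 with the mimic (log2 fold change -0.66, SE 0.093, adjusted p = 4.56e-05). The groups did not overlap, and without mimic replicate 1 the change was -0.57, just under 1.5-fold. Another 5 phosphodiesterases fell by less than 1.5-fold: the cAMP enzymes Pde8b (-0.50), Pde4b (-0.42) and Pde8a (-0.20), the calmodulin-dependent Pde1a (-0.28), and Pde3b above. Without mimic replicate 1, Pde8b was at -0.63 (adjusted p = 0.000172) and passed both cutoffs. Pde4a (0.18), Pde4d (0.16) and the cGMP enzyme Pde5a (0.18) rose. Pde4d was measured at 23.2, 23.9 and 24.9 against 26.6, 28.0 and 25.9 CPM (SE 0.0545, adjusted p = 0.0273). It no longer passed the adjusted p without control replicate 1 (0.092), control replicate 2 (0.0707) or mimic replicate 2 (0.1005) and with DESeq2 (0.0646). The other 6 phosphodiesterases tested did not pass, with log2 fold changes from -0.37 (Pde11a, 10 to 18 reads) to 0.0078 (Pde10a).

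The AKAPs had 13 members tested, of which 6 rose, 2 fell and 0 were called. Past the adjusted p were thus 61.5% of them, where 46.7% of all genes tested passed, 23.2% higher and 23.5% lower. Akap2 rose the most, from 271.8, 268.4 and 274.1 to 346.9, 329.7 and 335.9 CPM (0.31, SE 0.028, adjusted p = 7.11e-07), with no overlap. Of its exon bases, 84.4% are shared with the read-through gene Pakap on the same strand, which was not analysed here. Akap10 (0.23), Akap9 (0.20), which anchors PKA at the centrosome and Golgi, Akap8l (0.18), Akap13 (0.11) and the nuclear Akap8 (0.11) rose as well. Akap8 had overlapping groups and no longer passed the adjusted p with DESeq2 (0.063) or on removal of any of 4 samples (up to 0.118, without control replicate 1). Akap1, which anchors PKA at the outer membrane of mitochondria, fell from 100.9, 96.2 and 96.3 to 84.2, 88.0 and 83.9 CPM (-0.20, SE 0.034, adjusted p = 0.000312). Akap11 fell too (-0.18). Akap17b did not pass (0.17, adjusted p = 0.0845) except without mimic replicate 1 (0.22, adjusted p = 0.0444). Akap12, the most abundant per kilobase at 50.2 CPM with control mimic, was measured at 327.8, 324.1 and 321.3 against 321.5, 318.1 and 323.6 CPM and did not pass (-0.015, SE 0.026), with an interval from -0.066 to 0.037.

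The transcription factors at the end of the pathway did not pass the test. Creb1 was measured at 46.6, 47.9 and 46.9 CPM with control mimic and 47.4, 51.7 and 49.3 with miR-182-5p mimic, with overlapping groups (0.068, SE 0.044, adjusted p = 0.223). Crem, whose ICER transcripts encode a repressor induced by cAMP, gave 9.19, 9.23 and 8.05 against 9.52, 7.93 and 9.07 CPM (0.006, SE 0.092). The counts per gene do not separate ICER from the other Crem transcripts. The intervals, from -0.018 to 0.15 and from -0.17 to 0.19, lay inside 1.5-fold.

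Genes that act beside the members were taken from lists of known partners. Of 52 partner genes in 6 lists, 47 were tested, 1 was called higher and 3 lower, and 16 rose and 14 fell past the adjusted p alone, beside 7.45% of all genes tested called and 46.7% past the adjusted p. Rgs2, a regulator that restrains G protein signaling, was called lower, from 31.9, 34.1 and 32.4 to 10.4, 11.6 and 11.4 CPM (log2 fold change -1.56, SE 0.062, adjusted p = 1.36e-10). Rgs4, of the same family, was called higher (0.61, SE 0.13, adjusted p = 0.00146), but fell under 1.5-fold without control replicate 2 (0.50) or mimic replicate 1 (0.55). The lipases Pnpla2 (-0.69, SE 0.034, adjusted p = 1.71e-09), which starts triglyceride breakdown, and Mgll (-0.70, SE 0.040, adjusted p = 7.39e-09), which ends it, were the others called lower. Lipe and Plin1, the PKA substrates on lipid droplets, did not pass (-0.089 and -0.058). Of the 7 lipolysis genes, 4 fell and 0 rose. The 4 were Pnpla2, Mgll, Abhd5 (-0.29) and G0s2 (-0.21), counted without regard to whether a product promotes or restrains lipolysis. The summed level of the 7 was 3099 to 3180 CPM with control mimic and 2347 to 2637 with the mimic, beside the fall of adipocyte markers given above.

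Among inhibitors of PKA and exchange proteins activated by cAMP, 3 of 5 were tested and 2 rose, both of them inhibitors. Pkia rose from 10.3, 12.1 and 11.3 to 16.0, 16.2 and 17.9 CPM (0.58, SE 0.076, adjusted p = 2.7e-05). Pkig rose from 23.1, 22.9 and 23.3 to 28.8, 30.2 and 30.1 CPM (0.36, SE 0.050, adjusted p = 4.11e-05). In both, all mimic samples lay above all controls, at less than 1.5-fold. Rapgef3, which encodes an exchange protein, did not pass (-0.24, SE 0.16).

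Of the 11 tested G protein subunits outside the members, 3 rose and 4 fell with 0 called. Among all genes tested, 23.2% rose and 23.5% fell. Gnb1 rose from 329.8, 324.9 and 337.8 to 473.3, 464.1 and 462.9 CPM (0.50, SE 0.028, adjusted p = 5.19e-09). Of the 10 receptor regulators, 4 rose and 2 fell, and of the 10 partners of CREB, 3 rose and 3 fell. The salt-inducible kinases Sik1 (-0.49) and Sik2 (-0.34), which keep the CREB coactivators out of the nucleus, fell, while Sik3 (0.17) and the coactivators Crtc2 (0.20) and Crtc3 (0.31) rose and the coactivator Crtc1 (-0.16) fell. Of 9 tested genes known to be induced by cAMP, Fos (0.42), Nr4a1 (0.38), Nr4a2 (0.32) and Per1 (0.22) rose, Sik1, Pde4b and Dusp1 (-0.15) fell, and 0 were called.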

How the data were processed

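RNA from 3 control mimic and 3 miR-182-5p mimic samples of differentiated inguinal stromal cells was sequenced as stranded poly(A) libraries. Each sample's deposited file, made by the authors, lists raw counts by gene symbol. The submitters' processing notes name bcl2fastq, TopHat2, HTSeq and the build mm9, while annotation and strand setting are not given in the sources used here. The 5 tally lines of each list were left out: reads outside genes made up 12.7% to 13.0% of those with a unique alignment and ambiguous reads 0.652% to 0.667%, and 19363264 to 21673840 alignments that were not unique were kept apart, so near-identical genes can be undercounted.

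Counts were tested in R 4.3.3 with edgeR 4.0.16 (TMM, filterByExpr with a minimum count of 10, glmQLFit, glmQLFTest; 2 groups, no block; two-sided) and Benjamini-Hochberg adjustment over 13117 genes, and tried on simulated counts. Standard errors are the log2 fold change over the square root of F. Intervals are the log2 fold change ± 1.96 SE, a normal approximation that runs narrow with 6 samples, so their coverage can be under 95%. An exact permutation test of 3 against 3 samples cannot go below p = 0.1 and was not used. Lengths, coordinates, overlaps and 3′-UTRs came from GENCODE M21 on GRCm38, not mm9, matched for 22191 of 22609 symbols (1907 through an older symbol) and for all 69 members. Levels per kilobase divide CPM by the union of annotated exons. Sums and sites were computed in Python 3.11.15 (pandas 2.3.3, numpy 2.4.6), and plots in matplotlib 3.10.9.

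Members, gene lists and tests were chosen with earlier results of these data known. Named with values in each sample were called members, the member of each role with the highest level per length, and Adrb1, Adrb3, Gnas, PKA subunits, Pde3b, Pde4d, Creb1 and Crem. Adra2a, Adcy5, Adcy7, Akap1, Akap2, Pkia, Pkig and Gnb1 were added after their values were seen, and 1 tested member enters the counts and sums but is not reported here. The alternatives were DESeq2 1.42.0, limma-voom (limma 3.58.1), DESeq2 size factors or upper-quartile factors, the replicate block, no filter on counts or a minimum of 10 in each sample, each sample left out, a 2-fold cutoff, glmTreat, the longest transcript as length and an 8-base site.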

Additional observations from a re-analysis of the deposited data

How the results depend on the processing

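Of 57 alternative counts of called members, called partners and members with a site, 49 stayed within 1.5 times the reported count. The size of the sums per role depended on the length used. With the longest transcript as length, Gnas alone reached 254.5 CPM per kilobase with control mimic. By the union of exons, all G alpha subunits summed to 238.8. Members called higher numbered 2 with DESeq2 size factors and 1 to 2 with 1 sample left out. Members called lower numbered 2 with glmTreat against 1.5-fold, 1 at 2-fold, and 4 to 5 with 1 sample left out. The 8-base site was held by 8 members against 14. With the replicate number as a block, 1 member was called higher and 4 lower, 29 passed the adjusted p and 4 partners were called. The block lost Adra1a (log2 fold change -0.64, adjusted p = 0.0667) and the adjusted p of Prkar1a (0.0557) and changed no other call. The numbers were not taken as pairs: samples that share a number deviated from their group's mean with correlations of -0.185, -0.0436 and -0.0785, and no sample correlated best with its own number. Of the 31 members past the adjusted p, 26 stayed past it in all 13 alternative fits; Adra1a, Prkar1a, Prkar2b, Pde4d and Akap8 did not. Prkar1a was lost with upper-quartile factors (0.0595), as was Akap8 (0.0623).

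Members that did not pass the test changed sign in places. With 1 sample left out, log2 fold changes ranged from -0.099 to 0.014 for Adra1d, -0.44 to 0.13 for Adrb1, -0.13 to 0.013 for Gnai1, -0.048 to 0.11 for Adcy9, -0.084 to 0.061 for Pde10a, -0.062 to 0.20 for Akap5, -0.37 to 0.39 for Akap6, -0.13 to 0.045 for Akap7 and -0.057 to 0.080 for Crem. Upper-quartile factors gave -0.0043 for Pde10a and -0.0060 for Crem, and limma-voom -0.050 for Akap6. The cause was not tested. Depth limits Adra1a, Adrb1, Adcy2, Pde11a, Akap5 and Akap6, with 8 to 31 reads per sample.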
